A study of Mus musculus with 6 samples.

Results

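The translation initiation and elongation factors described here are the 57 genes, of 23415 with a usable status in all 6 deposited gene tables, whose symbol starts with Eif or Eef. The kinases and binding proteins named Eif2ak and Eif4ebp, the sex-linked Eif2s3x and Eif2s3y, and pseudogene symbols were left out by the same rule, and no expression value was used to choose members. They comprised 2 subunits of eIF2, 5 of eIF2B, 12 of eIF3, 10 genes of the eIF4 group, 5 of eEF1, the single eEF2 gene and 22 others. The symbols Eif2c1 to Eif2c4, which entered by name, are older names of the Argonaute genes (Ago1 to Ago4), whose proteins carry small RNAs and are not initiation factors. Eef1e1, Eef2k, Eif4enif1, Eif4a3 and Eif6 also entered by name only, and without these 9 symbols 48 factors proper remained. Eif3j had too little data in the tables and was left out.

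RNA was sequenced from CD4 T cells of C57/Bl6j mice aged 7 weeks, either lacking the inflammasome sensor NLRP3 (NLRP3KO, labelled NLRP3 KO) or wild type (WT, labelled Wild-type), to examine their expression during T helper type 2 (Th2) differentiation. There were 6 groups: naive cells, cells at day 3 and cells at day 6, each from NLRP3KO and from WT mice. Naive cells came from spleen and nodes. For the day 3 and day 6 groups, both genotypes were cultured on plates coated for CD3 and CD28 stimulation, in 10 ng/ml of IL-4 plus a blocking antibody to IFNgamma. Purified mRNA went into the naive libraries and RNA depleted of ribosomal RNA into the 4 Th2 libraries, so that stage and library kind cannot be told apart in any comparison with naive cells. The sources used here do not say whether cells came from single or pooled mice. Each group is represented by a single library, so no difference could be set against a spread between replicates and none is tested.

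Initiation factors bring the first transfer RNA, the small ribosomal subunit and a messenger RNA together at the start codon. eIF2 carries the initiator transfer RNA and eIF2B reloads eIF2 with GTP, eIF3 is the large scaffold on the small subunit, and the eIF4 group binds the cap, unwinds the leader and bridges to eIF3. Elongation then depends on eEF1, which delivers aminoacyl transfer RNAs, and on eEF2, which moves the ribosome along the message. Resting T cells make little protein and raise protein synthesis strongly after activation, which is the background against which these genes are of interest in naive and cultured cells.

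Many growth-related promoters hold the letters CACGTG, the E-box bound by MYC and related factors, and the promoter windows of the members were searched for it. RefSeq windows (GRCm38.p6, 250 bases before to 50 after each transcription start) were matched by symbol for 45 of the 57 members. The 6 letters, which read the same on both strands, were in the windows of 12 of these 45 genes (26.7%), against 2187 of 27025 genes in the whole table (8.09%), and in 14 of 60 member windows (23.3%) against 7.15% of all 32851 windows. The stretches around the motif are shown for 4 members that are among the most abundant of their complex, each 60 bases long and printed 5′ to 3′ on the gene's strand, with the motif in capitals. A match describes letters in these windows only.

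Eef2 (chr10:81176561-81176620, GRCm38.p6, plus strand): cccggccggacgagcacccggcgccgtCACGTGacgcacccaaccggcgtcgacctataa
Eif3f (chr7:108934320-108934379, GRCm38.p6, plus strand): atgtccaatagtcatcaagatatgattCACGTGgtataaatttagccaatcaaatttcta
Eif3k (chr7:28981900-28981959, GRCm38.p6, minus strand): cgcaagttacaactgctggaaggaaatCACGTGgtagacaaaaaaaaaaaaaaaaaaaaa
Eif4h (chr5:134639473-134639532, GRCm38.p6, minus strand): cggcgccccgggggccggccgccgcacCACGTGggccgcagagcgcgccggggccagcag

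The motif began 43 bases before the start site in Eef2, 68 in Eif3f, 44 in Eif3k and 96 in Eif4h. The other members with a match were Eef2k, Eif1b, Eif3a, Eif4a1, Eif4e, Eif4g1, Eif5a and Eif5a2.

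The deposited value of a gene is its FPKM, the fragments assigned to it per length of transcript and depth of the library. The tables give no counts, and fragments per member were estimated from FPKM, confidence bounds and transcript length. The libraries differed widely in depth: fragments on the 57 members were estimated at 36562 in NLRP3KO naive and 41835 in WT naive, 699 in NLRP3KO day 3 and 868 in WT day 3, and 151 in NLRP3KO day 6 and 1018 in WT day 6. Members above 0 numbered 55 in each naive library, 42 and 45 at day 3 (NLRP3KO and WT), and 33 and 51 at day 6 (NLRP3KO and WT), whereas the share of all genes above 0 was 53.7% and 55.0%, 27.2% and 28.8%, and 11.9% and 29.4% in the same order. In NLRP3KO day 6, 3 members reached 10 fragments. On a transcript of 2 kb, 3 fragments, the upper limit that a count of 0 allows, corresponded to an FPKM of 0.530 in NLRP3KO naive and 0.360 in WT naive, of 3.40 in NLRP3KO day 3 and 2.68 in WT day 3, and of 12.5 in NLRP3KO day 6 and 2.87 in WT day 6. Nlrp3 itself was listed at 0 in the 3 NLRP3KO libraries and in WT day 3 and WT day 6, and at an FPKM of 0.0569 in WT naive, about 1 fragment, so its level could not check the genotype labels.

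The T cell label was checked with Cd3d, Cd3e, Cd3g, Cd4, Lck, Trat1, Cd5 and Cd28. All 8 were above 0 in both naive libraries, in WT day 3 and in WT day 6, 6 of 8 in NLRP3KO day 3 (Cd3d and Trat1 at 0) and 4 of 8 in NLRP3KO day 6 (Cd3g, Cd5, Lck and Trat1 at 0). Markers of other cells were mainly in the naive libraries: the 6 B cell markers summed to an FPKM of 39.0 in NLRP3KO naive and 80.5 in WT naive, and the 4 erythroid entries to 455 in NLRP3KO naive and 177 in WT naive. In the Th2 libraries the erythroid, CD8 and NK markers were all at 0, the B cell markers were at 0 except Cd79b in WT day 3 (1.57), and the myeloid markers were at 0 except Emr1 in NLRP3KO day 3 (0.68). The part of these cells in the differences below was not tested.

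**Figure D1:**
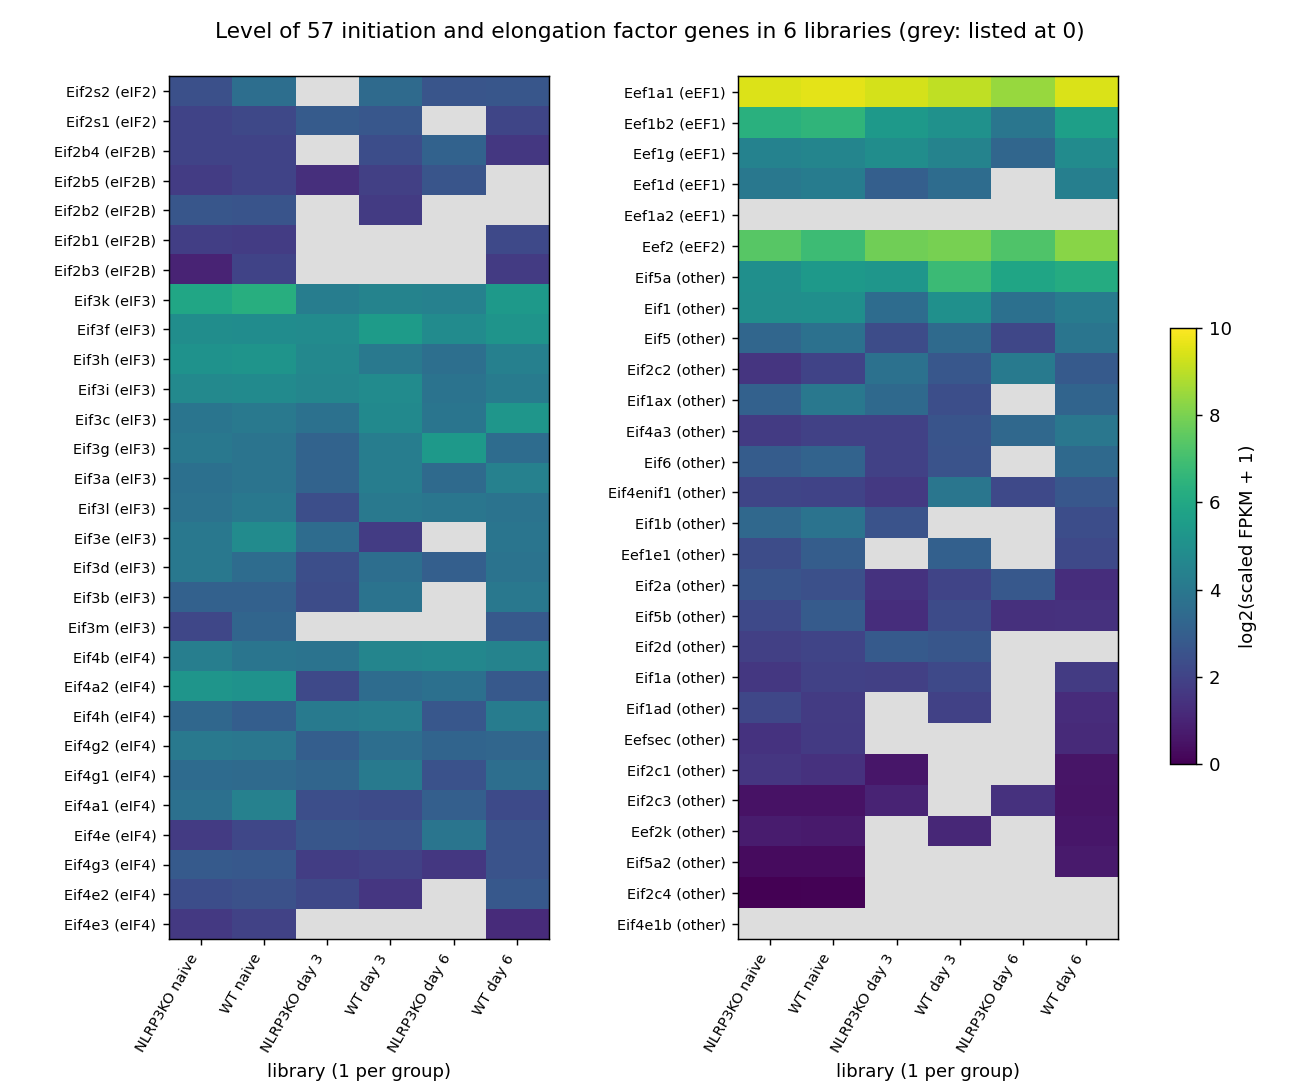
Level of each member in each library as log2(scaled FPKM + 1), with 1 column per library and the complexes from top to bottom; grey cells are listed at 0. Eef1a1 and Eef2 had the highest levels in every library, and NLRP3KO day 6 had the most members listed at 0 (24 of 57).

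Elongation factors led in every library. Eef1a1, which encodes the main form of the factor that delivers aminoacyl transfer RNA, held between 29.8% (WT day 3) and 41.6% (WT naive) of the fragments on members, and Eef2 came next in level in each library. The split between initiation and elongation was different at day 3. Among the fragments on the 48 factors proper, those on the 41 initiation factors made up 25.0% in NLRP3KO day 3 (166 of 664, 95% exact Clopper-Pearson interval 21.7 to 28.5) and 38.5% in WT day 3 (319 of 828, 35.2 to 41.9). The share was 34.5% in NLRP3KO naive (34.0 to 35.0) and 38.0% in WT naive (37.6 to 38.5). At day 6 it was 38.7% in NLRP3KO (53 of 137, 30.5 to 47.4) and 31.9% in WT (313 of 980, 29.0 to 35.0). The NLRP3KO library was thus below WT in naive cells and at day 3, with intervals that did not overlap, and above WT at day 6, with intervals that overlapped. In naive cells Eef2 alone held 17.6% of these fragments in NLRP3KO and 11.4% in WT, and the eEF1 genes 47.7% and 50.4%. The naive values of Eef2, Eef1a1 and Eef1b2 lay outside their own deposited bounds, so the naive shares are less certain than their intervals imply. Eif5a was counted by its name as an initiation factor; counted with elongation, the day 3 shares were 23.2% in NLRP3KO and 33.7% in WT. This share needs no scaling between libraries. The intervals here and below cover counting error only, since reads were amplified by PCR without molecular identifiers, and they compare the fragments of 2 libraries, not 2 genotypes.

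**Figure D2:**
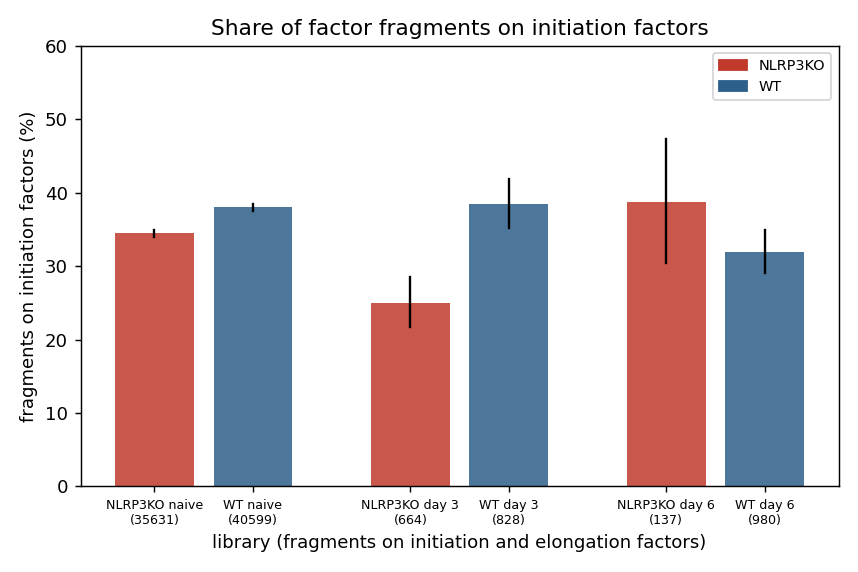
Percent of the estimated fragments on initiation and elongation factors that lay on initiation factors, 1 bar per library with its 95% exact binomial interval as a line; the number in brackets is all fragments on these factors. NLRP3KO day 3 was the lowest bar at 25.0%, against 38.5% in WT day 3.

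For differences between libraries, FPKM were multiplied by a scale factor per library. A difference is taken between log2(scaled FPKM + 1) values, a scale on which low genes appear closer together than they are. A member was kept if its FPKM reached 1 in either library, and the number at least 2-fold apart is given beside that of all genes treated alike. Printed FPKM are as deposited. "Bounds apart" means that the scaled deposited confidence bounds of the 2 libraries did not overlap. In bulk RNA, fewer cells of a type and less RNA per cell cannot be told apart, which holds for every difference below.

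Between the naive libraries 53 members were kept, 3 were at least 2-fold lower in NLRP3KO (2.32% of all genes kept were) and 0 were at least 2-fold higher (0.21% of all genes). The 3 were Eif2s2, Eif3m and Eif2b3, all with bounds apart and above 0 in both libraries (1.8% of all genes lower, 0.0701% higher). The median difference of the members kept was −0.15, against 0.01 for all genes, and turned to 0.25 with FPKM as deposited, against 0.37 for all genes. That scaling shifts naive log2 ratios by 0.42 before the pseudocount is added. Less the median of all genes, the members' naive median was between −0.18 and −0.11 under each of the 5 other scalings. At day 3, 45 members were kept. In NLRP3KO, 16 were at least 2-fold lower (27.2% of all genes) and 4 at least 2-fold higher (25.4%), with a median of −0.63 against 0.11 for all genes. No member above 0 in both day 3 libraries was at least 2-fold apart with bounds apart, as 0.557% of all genes lower and 0.818% higher were. At day 6, 46 were kept, 20 were at least 2-fold lower in NLRP3KO (53.8% of all genes) and 6 at least 2-fold higher (20.9%), and the median was −0.93 against −1.52 for all genes, an order that turned round above 0 in both libraries (−0.41 against 0.33), with a minimum FPKM of 5 (−0.86 against −0.35), with a pseudocount of 5 (−0.56 against −0.50) and with no minimum (−0.74 against 0). Of the members kept at day 6, 13 were listed at 0 in NLRP3KO and 1 in WT, and none above 0 in both was at least 2-fold apart with bounds apart (0.581% of all genes lower, 0.169% higher). Eef2 (−0.98) and Eef1a1 (−0.97) had bounds apart just short of 2-fold. Members pass this filter through the library in which they are high, so these medians describe the kept members only. With no minimum the day 3 median over the 57 members was −0.24.

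**Figure D3:**
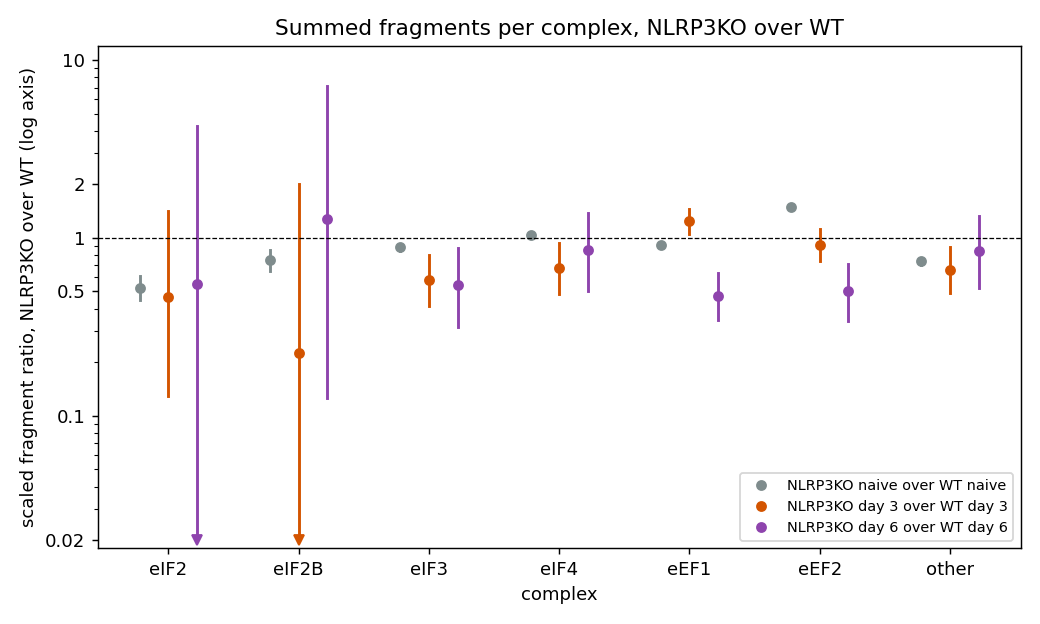
Scaled ratio of the summed fragments of each complex, NLRP3KO over WT, on a log axis, at the 3 stages; lines are 95% exact binomial intervals for counting error only, and arrowheads mark intervals that reach below 0.02. With the scaling used, the eIF3 ratio was 0.58 at day 3, where the eEF1 ratio was 1.24.

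eIF2 and its exchange factor eIF2B had the lowest median FPKM of the 6 named complexes in every library. Eif2s2, the beta subunit of eIF2 (chr2:154697146-154718642 on mm9), had an FPKM of 18.0 in NLRP3KO naive and 34.3 in WT naive, was listed at 0 in NLRP3KO day 3 against 4.89 in WT day 3, and had 3.26 in NLRP3KO day 6 and 3.00 in WT day 6. The NLRP3KO library was the lower one in naive cells and at day 3, while the day 6 values lay close together. The naive difference was −1.18, from an estimated 132 and 371 fragments, with a scaled ratio of 0.39 (0.32 to 0.48). At day 3 no fragment stood against 7 in WT, and 3 fragments would have been an FPKM of 2.64 in the NLRP3KO library. Eif2s2 was the only kept member at that stage with bounds apart, while 2.52% of all genes were at least 2-fold lower with bounds apart.

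Eif2s1, the alpha subunit whose phosphorylation blocks eIF2 recycling, had 12.3 in NLRP3KO naive and 10.5 in WT naive, 3.50 in NLRP3KO day 3 and 2.75 in WT day 3, and was listed at 0 in NLRP3KO day 6 against 1.77 in WT day 6. Its naive ratio was 0.87 (0.67 to 1.12), so the 2 subunits were not lower to the same degree. The ratio of Eif2s2 to Eif2s1 FPKM can be read within a library: Eif2s2 was 1.46-fold above Eif2s1 in NLRP3KO naive and 3.27-fold above it in WT naive. Summed over both subunits the scaled ratio was 0.52 in naive cells (0.45 to 0.61), 0.47 at day 3 (0.13 to 1.42, from 5 and 12 fragments) and 0.55 at day 6 (0.01 to 4.28, from 1 and 7 fragments).

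Of the eIF2B subunits, Eif2b3 (gamma, one of the catalytic pair; chr4:116692013-116759457 on mm9) had 4.06 in NLRP3KO naive and 9.39 in WT naive, was listed at 0 in NLRP3KO day 3, WT day 3 and NLRP3KO day 6, and had 1.26 in WT day 6. The naive difference was −1.03 with a ratio of 0.32 (0.23 to 0.44). The other 4 subunits had naive differences between −0.23 and 0.08, so Eif2b3 stood apart from its partners. Eif2b4 (delta) had 12.2 in NLRP3KO naive and 9.17 in WT naive, was listed at 0 in NLRP3KO day 3 against 2.08 in WT day 3, and had 4.86 in NLRP3KO day 6 and 1.12 in WT day 6. Eif2b5 (epsilon, the other catalytic subunit) had 9.87 in NLRP3KO naive and 9.19 in WT naive, 0.873 in NLRP3KO day 3 and 1.37 in WT day 3, and 3.20 in NLRP3KO day 6 against a value listed at 0 in WT day 6. The Th2 values of all 5 subunits rest on few fragments, with 1 in NLRP3KO day 3, 5 in WT day 3, 2 in NLRP3KO day 6 and 6 in WT day 6.

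The 12 eIF3 subunits measured spanned an FPKM of 13.9 (Eif3m) to 241 (Eif3k) in NLRP3KO naive and 23.3 (Eif3b) to 233 (Eif3k) in WT naive. At day 3, 9 of 11 kept subunits were lower in NLRP3KO (47.1% of all genes), 6 of them at least 2-fold (27.2%). Their fragments summed to 59 in NLRP3KO day 3 and 114 in WT day 3, a scaled ratio of 0.58 (0.42 to 0.80). Across the other scalings this day 3 ratio lay between 0.52 and 0.66. The naive ratio was 0.88 (0.85 to 0.92) but 1.18 with FPKM as deposited, and the day 6 ratio was 0.54 (0.32 to 0.88, from 19 and 135 fragments), or 0.88 (0.52 to 1.44) by summed FPKM.

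Eif3a, the largest eIF3 subunit and the one with the most fragments at day 3 in WT, had 48.7 in NLRP3KO naive and 40.6 in WT naive, 4.60 in NLRP3KO day 3 and 8.88 in WT day 3, and 6.13 in NLRP3KO day 6 and 10.9 in WT day 6. Both Th2 libraries of NLRP3KO were below WT of the same day, and the naive one was above WT before scaling. The day 3 difference was −1.04, with a ratio of 0.46 (0.20 to 0.95, from 11 and 27 fragments) under the scaling used. FPKM as deposited shifts day 3 log2 ratios up by 0.18, and the upper limit lies close to 1, so whether it holds 1 depends on the scaling. Eif3c, which forms the core with Eif3a, had 6.92 in NLRP3KO day 3 and 12.7 in WT day 3 (ratio 0.48, 0.19 to 1.09). Eif3b, the RNA-binding scaffold subunit, had 31.0 in NLRP3KO naive and 23.3 in WT naive, 2.24 in NLRP3KO day 3 and 6.46 in WT day 3, and was listed at 0 in NLRP3KO day 6 against 8.18 in WT day 6. Eif3a and Eif3c were named here after their values were seen.

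Among the most abundant subunits, Eif3k, a peripheral subunit, had 241 in NLRP3KO naive and 233 in WT naive, 10.1 in NLRP3KO day 3 and 10.6 in WT day 3, and 12.3 in NLRP3KO day 6 and 22.5 in WT day 6. Eif3f had 118 in NLRP3KO naive and 86.8 in WT naive, 15.4 in NLRP3KO day 3 and 21.9 in WT day 3, and 17.0 in NLRP3KO day 6 and 19.5 in WT day 6. These 2 genes hold the E-box stretches printed above, and they parted between stages: Eif3k was 1.80 (log2) lower in WT day 3 than in WT naive, whereas Eif3f was 0.61 higher. Eif3h had 135 in NLRP3KO naive and 108 in WT naive, 13.6 in NLRP3KO day 3 and 7.65 in WT day 3, and 7.13 in NLRP3KO day 6 and 10.6 in WT day 6. Eif3i had 102 in NLRP3KO naive and 81.9 in WT naive, 13.1 in NLRP3KO day 3 and 13.8 in WT day 3, and 8.02 in NLRP3KO day 6 and 9.18 in WT day 6. Eif3h and Eif3i differed between genotypes by at most 0.70 (log2) at any stage.

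Eif3m (chr2:104839814-104857184 on mm9) had 13.9 in NLRP3KO naive and 26.0 in WT naive, was listed at 0 in NLRP3KO day 3, WT day 3 and NLRP3KO day 6, and had 3.27 in WT day 6. It was the one eIF3 subunit at least 2-fold lower in NLRP3KO naive, with a difference of −1.11 and a ratio of 0.40 (0.28 to 0.56, from 47 and 130 fragments). Eif3e was next at −0.82, with 61.3 in NLRP3KO naive and 83.2 in WT naive. In the Th2 libraries Eif3e had 6.03 in NLRP3KO day 3 and 1.19 in WT day 3, and was listed at 0 in NLRP3KO day 6 against 7.62 in WT day 6. At day 3 it was therefore on the other side from most eIF3 subunits, on 4 fragments in NLRP3KO and 1 in WT. Eif3d was higher in NLRP3KO naive, with 61.6 against 32.4 in WT naive (0.47, ratio 1.41, 1.20 to 1.67).

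In the eIF4 group the naive libraries had a summed ratio of 1.04 (1.00 to 1.08). It was 1.39 (1.33 to 1.44) with FPKM as deposited and 1.29 (1.24 to 1.34) by summed FPKM. At day 3 the ratio was 0.68 (0.48 to 0.94, from 61 and 101 fragments), or 0.77 (0.55 to 1.07) with FPKM as deposited. At day 6 it was 0.85 (0.50 to 1.38), and above 1 when scaled by fragments on genes (1.24) and by summed FPKM (1.39). Eif4b, the helper of the helicase, had 74.4 in NLRP3KO naive and 41.8 in WT naive, 7.37 in NLRP3KO day 3 and 11.2 in WT day 3, and 14.6 in NLRP3KO day 6 and 11.5 in WT day 6. NLRP3KO was the higher library in naive cells (0.38) and the lower one at day 3 (−0.74), where the interval of the ratio was 0.27 to 1.18. Eif4g2, a scaffold that lacks the cap-binding region, had 62.7 in NLRP3KO naive and 45.1 in WT naive, 3.93 in NLRP3KO day 3 and 5.65 in WT day 3, and 5.14 in NLRP3KO day 6 and 4.90 in WT day 6. Eif4h, another helicase cofactor, had 37.1 in NLRP3KO naive and 21.4 in WT naive, 9.29 in NLRP3KO day 3 and 8.78 in WT day 3, and 3.41 in NLRP3KO day 6 and 9.41 in WT day 6. Eif4e, the cap-binding protein, differed by −0.38 in naive cells and by 0.14 at day 3, with 4 fragments in each day 3 library.

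The helicase paralogs Eif4a1 and Eif4a2 were read as a pair. Eif4a2 had 146 in NLRP3KO naive and 101 in WT naive, 2.03 in NLRP3KO day 3 and 5.24 in WT day 3, and 7.45 in NLRP3KO day 6 and 3.21 in WT day 6. Eif4a1 had 48.8 in NLRP3KO naive and 61.5 in WT naive, 2.44 in NLRP3KO day 3 and 1.92 in WT day 3, and 4.46 in NLRP3KO day 6 and 2.06 in WT day 6. The ratio of Eif4a1 to Eif4a2 was 0.33 in NLRP3KO naive and 0.61 in WT naive, so Eif4a2 led in both. In the Th2 libraries the ratio rests on at most 7 fragments per gene and no order is read from it. Both genes hold small nucleolar RNAs in their introns, and Eif4a1, like Eef1a1, Eef1b2 and Eif5a, has near-identical processed copies in the genome, so the counting could split their reads.

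Eef1a1 (chr9:78326261-78329531 on mm9) had an FPKM of 2892 in NLRP3KO naive and 2351 in WT naive, 366 in NLRP3KO day 3 and 259.9 in WT day 3, and 216 in NLRP3KO day 6 and 376 in WT day 6. NLRP3KO was the higher library at day 3 and the lower one at day 6. The scaled ratio was 0.92 in naive cells (0.90 to 0.94), where NLRP3KO was the higher library with FPKM as deposited, 1.24 at day 3 (1.05 to 1.48, from 287 and 259 fragments) and 0.51 at day 6 (0.36 to 0.69, from 46 and 350 fragments). Scaling over the 2 libraries alone shifts day 3 log2 ratios by −0.16. The lower limit of the Eef1a1 ratio at day 3 lies close to 1, so whether its interval holds 1 depends on the scaling. The muscle and neuron form Eef1a2 was listed at 0 in all 6 libraries.

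In listed value, the exchange factors of eEF1 lay on the same side as Eef1a1 at day 3 and day 6, except for Eef1d at day 3. The day 3 ratio intervals held 1 for Eef1b2 (0.63 to 2.50), Eef1g (0.52 to 3.74) and Eef1d (0.10 to 3.46). The day 6 intervals held 1 for Eef1b2 (0.03 to 1.13) and Eef1g (0.01 to 2.17). The side of each exchange factor is therefore not settled by its fragments. Eef1b2 had 332 in NLRP3KO naive and 279.6 in WT naive, 23.5 in NLRP3KO day 3 and 16.2 in WT day 3, and 8.63 in NLRP3KO day 6 and 26.8 in WT day 6. Eef1g had 85.0 in NLRP3KO naive and 67.6 in WT naive, 16.3 in NLRP3KO day 3 and 10.5 in WT day 3, and 5.44 in NLRP3KO day 6 and 15.0 in WT day 6. Eef1d had 61.1 in NLRP3KO naive and 53.0 in WT naive, 4.05 in NLRP3KO day 3 and 5.32 in WT day 3, and was listed at 0 in NLRP3KO day 6 against 10.2 in WT day 6. All 4 detected eEF1 genes were listed lower in NLRP3KO day 6 than in WT day 6, as 65.0% of all genes kept were lower. The summed day 6 ratio was 0.47 (0.34 to 0.64, from 49 and 398 fragments), or 0.77 (0.56 to 1.04) by summed FPKM. Eef1a1 held 46 of the 49 fragments in NLRP3KO day 6, so this sum describes mainly Eef1a1. The summed day 3 ratio was 1.24 (1.05 to 1.45) with the scaling used. It was 1.11 when scaled over the 2 libraries alone, with an interval that held 1. Eef1d at day 6, with Eif3b, Eif3e and Eif6, had bounds apart through a 0 in NLRP3KO, while the same call, 2-fold lower with bounds apart, held for 12.3% of all genes at that stage. For each of these 4, 3 fragments would have been an FPKM of at least 8.25 in the NLRP3KO day 6 library.

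Eef2 (chr10:80639376-80645254 on mm9), the translocase, had 694 in NLRP3KO naive and 348 in WT naive, 126 in NLRP3KO day 3 and 123 in WT day 3, and 91.8 in NLRP3KO day 6 and 161 in WT day 6. The ratio was 1.49 in naive cells (1.43 to 1.54), 0.91 at day 3 (0.74 to 1.12, or 1.03 with FPKM as deposited) and 0.50 at day 6 (0.34 to 0.72, or 0.82 with an interval of 0.56 to 1.17 by summed FPKM). At 0.57 on the log2 scale, Eef2 had the highest naive difference of the 57 members, below 2-fold. The naive values of Eef2, Eef1a1, Eef1b2, Eif3h, Eif3k and Eif1 lay outside their own deposited bounds in both libraries, as did Eif3i in WT naive, and are less certain than their fragments imply.

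Among the remaining members, Eif5a (chr11:69730214-69735460 on mm9), the hypusine-bearing factor that helps ribosomes through difficult peptide bonds, was also lower in NLRP3KO at day 3. It had 123 in each naive library, 20.9 in NLRP3KO day 3 and 55.2 in WT day 3, and 36.1 in NLRP3KO day 6 and 38.2 in WT day 6. WT day 3 was the high library among the Th2 ones. The day 3 difference was −1.55, with a ratio of 0.34 (0.16 to 0.65, from 12 and 40 fragments), and the deposited bounds of the 2 libraries overlapped. Its paralog Eif5a2 was below an FPKM of 1 in every library.

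Eif1, which guards start codon choice, had 122 in NLRP3KO naive and 93.0 in WT naive, 5.92 in NLRP3KO day 3 and 15.5 in WT day 3, and 7.25 in NLRP3KO day 6 and 9.14 in WT day 6. Eif5, the GTPase activator of eIF2, had 35.9 in NLRP3KO naive and 37.5 in WT naive, 2.29 in NLRP3KO day 3 and 4.95 in WT day 3, and 2.09 in NLRP3KO day 6 and 7.48 in WT day 6. Both were lower in NLRP3KO at day 3, by 1.49 and 1.12 on the log2 scale, with intervals of the ratio (0.05 to 1.16 and 0.09 to 1.23) that held 1. Eif6, which keeps free large subunits apart from small ones, had 26.6 in NLRP3KO naive and 24.4 in WT naive, 1.56 in NLRP3KO day 3 and 2.45 in WT day 3, and was listed at 0 in NLRP3KO day 6 against 5.25 in WT day 6.

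Eif2c2 and Eif4enif1, which are not factors proper, also had day 3 ratios whose intervals did not hold 1. These intervals are not adjusted for the number of members and are given for the scaling used. Scaling over the 2 libraries alone shifts log2 ratios by −0.16 at day 3 and −0.15 at day 6. The lower limits of Eif2c2 lie close to 1, so whether its intervals hold 1 depends on the scaling. Eif2c2, the slicing Argonaute (Ago2), had 7.94 in NLRP3KO naive and 9.16 in WT naive, 6.94 in NLRP3KO day 3 and 2.73 in WT day 3, and 9.78 in NLRP3KO day 6 and 3.38 in WT day 6. NLRP3KO was above WT at both Th2 days, with ratios of 2.24 (1.11 to 4.75, from 26 and 13 fragments) and 2.57 (1.03 to 6.11, from 10 and 15 fragments), and below WT in naive cells (0.65, 0.54 to 0.78). Eif4enif1, which carries eIF4E into the nucleus, had 13.1 in NLRP3KO naive and 9.18 in WT naive, 1.21 in NLRP3KO day 3 and 6.96 in WT day 3, and 2.23 in NLRP3KO day 6 and 3.07 in WT day 6. Its day 3 ratio was 0.15 (0.02 to 0.64, from 2 and 15 fragments).

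Against naive cells, deposited FPKM were lower at day 3 for 55 of 57 members in NLRP3KO and in WT, the others being at 0, and the differences depend on the scaling between the 2 library kinds. After scaling, 53 members were kept in WT day 3 against WT naive. 14 were at least 2-fold lower (31.3% of all genes) and 4 at least 2-fold higher (9.99%), with a median of −0.09 against −0.52 for all genes, an order that turned round with FPKM as deposited (−2.51 against −2.05). Among members above 0 in both libraries, 6 were at least 2-fold lower with bounds apart (5.77% of all genes) and 4 at least 2-fold higher with bounds apart (2.93%). The 4 higher were Eif4enif1 (1.90), Eif5a (1.44), Eif4h (1.22) and Eef2 (1.11), which were lower with FPKM as deposited (−0.36, −1.14, −1.20 and −1.50). The promoter windows of Eif5a, Eif4h and Eef2 held CACGTG. The 6 lower were Eif3e (−3.06), Eif4a1 (−2.12), Eif3k (−1.80), Eif4a2 (−1.56), Eef1b2 (−1.46) and Eif3h (−1.14), of which Eif3k and Eif4a1 held it, while no window was matched for Eif3e and Eif3h. Eif1b, a close relative of Eif1, was furthest down, with 0 in WT day 3 against 39.3 in WT naive, followed by Eif3m.

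In NLRP3KO day 3 against NLRP3KO naive, 18 of 53 kept members were at least 2-fold lower (32.1% of all genes) and 1 was at least 2-fold higher (10.8%), with a median of −0.82 against −0.53 for all genes, an order that turned round when scaled by fragments on genes (−0.74 against −0.98) and by summed FPKM (−0.58 against −0.84). Above 0 in both libraries, 6 were at least 2-fold lower with bounds apart (5.11% of all genes), namely Eif4a2 (−3.00), Eif3k (−1.67), Eif3d (−1.62), Eif1 (−1.42), Eif3l (−1.36) and Eif4g2 (−1.03). Eif2c2 was the 1 member at least 2-fold higher with bounds apart (2.18, 2.56% of all genes). Eif4a2 was lower at day 3 in both genotypes, by 3.00 in NLRP3KO and 1.56 in WT on the log2 scale. Eif2b2, the beta subunit of eIF2B, was listed at 0 in NLRP3KO day 3 against 22.1 in NLRP3KO naive. All 12 eIF3 subunits were lower in NLRP3KO day 3 than in NLRP3KO naive (68.9% of all genes), or 9 of 12 when scaled by fragments on genes. In WT 8 of 12 were higher at day 3 (32.7% of all genes) and 4 lower (67.3%), or 5 and 7 when scaled over the 2 libraries alone and 0 and 12 with FPKM as deposited. The summed eIF3 ratio, day 3 over naive, was 0.66 in NLRP3KO (0.50 to 0.85) and 1.00 in WT (0.82 to 1.20). Over the other scalings it ran from 0.09 to 0.84 in NLRP3KO and from 0.16 to 1.43 in WT. For Eef2 the ratio was 1.34 in NLRP3KO (1.15 to 1.55) and 2.18 in WT (1.90 to 2.50). Over the other scalings the Eef2 ratio ran from 0.18 to 1.72 in NLRP3KO and from 0.36 to 3.12 in WT. It was below 1 with FPKM as deposited. The genotype and stage comparisons share libraries, and the difference between genotypes in these stage ratios was not tested.

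**Figure D4:**
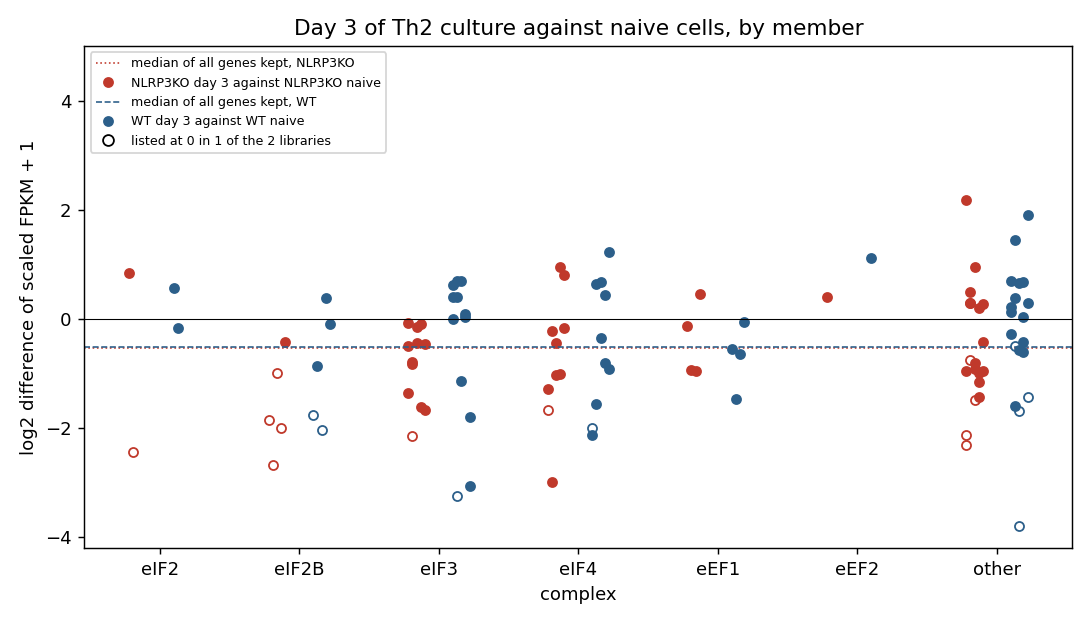
Log2 difference of scaled FPKM + 1 of each kept member, day 3 of Th2 culture against naive cells, by complex, with NLRP3KO points left of WT points; open points are listed at 0 in 1 of the 2 libraries and horizontal lines are the medians of all genes kept (−0.53 in NLRP3KO and −0.52 in WT). With the scaling used, the 12 eIF3 points lie below 0 in NLRP3KO, while 8 of 12 lie above 0 in WT; with FPKM as deposited all would lie below 0.

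Between day 3 and day 6 the WT libraries were close. Of 48 members kept, 7 were at least 2-fold higher at day 6 (24.1% of all genes) and 4 at least 2-fold lower (20.2%), with a median of −0.03 as for all genes, and none above 0 in both was at least 2-fold apart with bounds apart (0.161% of all genes higher, 0.304% lower). Elongation factors summed to a ratio, WT day 6 over WT day 3, of 1.28 (1.13 to 1.43), and initiation factors stood at 0.96 (0.81 to 1.12). In NLRP3KO the elongation ratio, day 6 over day 3, was 0.56 (0.44 to 0.71) and the initiation ratio 1.07 (0.77 to 1.46), between 0.96 and 1.44 over the other scalings. Of 43 members kept there, 14 were at least 2-fold lower (51.8% of all genes) and 9 at least 2-fold higher (21.0%), and none above 0 in both was at least 2-fold apart with bounds apart (0.25% of all genes lower, 0.0576% higher). Eef1a1 (−0.89) had bounds apart below 2-fold. Eif3e and Eif2s1 were at least 2-fold lower with bounds apart through a 0 at day 6, as 8.35% of all genes were, calls through a 0 included.

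Of 32 genes that regulate or assist these factors, 30 were kept in the naive comparison. With 1 added to scaled FPKM, 0 were at least 2-fold apart between genotypes (2.32% of all genes lower, 0.21% higher). Short of 2-fold on that scale, Rps6kb2 (0.77) and Ppp1r15a (0.70) were higher in NLRP3KO naive with bounds apart, and Pabpc1 (−0.54) and Eif2ak1 (−0.41) lower. Rps6kb2 had an FPKM of 12.0 in NLRP3KO naive and 3.99 in WT naive (118 and 58 fragments). At such low levels the added 1 makes the difference look smaller than it is. At day 3, 8 of 22 kept were at least 2-fold lower in NLRP3KO (27.2% of all genes) and 2 higher (25.4%), with a median of −0.34. Eif4ebp2, an inhibitor of eIF4E, was listed at 0 in NLRP3KO day 3 against 9.08 in WT day 3, and had 35.0 in NLRP3KO naive and 21.2 in WT naive, and 4.70 in NLRP3KO day 6 and 6.48 in WT day 6. It was the single regulator with bounds apart at day 3, through a 0, while 2.52% of all genes were at least 2-fold lower with bounds apart. Eif4ebp1, the related inhibitor, had 2.81 in NLRP3KO naive and 3.53 in WT naive, 5.03 in NLRP3KO day 3 and 5.95 in WT day 3, and 9.25 in NLRP3KO day 6 and 10.6 in WT day 6. On the scale with 1 added, NLRP3KO was lower by −0.35 in naive cells, −0.38 at day 3 and −0.34 at day 6. The bounds overlapped at each stage. The values rest on 14 fragments in NLRP3KO naive and 27 in WT naive, and on 2 in NLRP3KO day 6 and 10 in WT day 6. How far Eif4ebp1 differed between genotypes cannot be read from so few fragments. With the scaling used, Eif4ebp1 was at day 3 2.59 (log2) above naive cells in WT and 2.56 in NLRP3KO. These day 3 values rest on 6 fragments in WT and 4 in NLRP3KO, and the bounds overlapped in both comparisons. The deposited FPKM given above rose by less, and stage and library kind cannot be told apart. At day 6, 8 of 20 regulators kept were at least 2-fold lower in NLRP3KO (53.8% of all genes) and 5 higher (20.9%).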

How the data were processed

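The data were RNA-seq gene tables of 6 libraries, 1 for each genotype and stage. The authors deposited FPKM with lower and upper confidence bounds and a status for each of 23700 gene entries, per the file headers, and the 285 entries with too little data were left out. The submitters' processing notes name TopHat, Cufflinks and mm9, with no versions or roles, and the sources used here do not state an annotation. Coordinates of members are those of the tables. Each library's FPKM were multiplied by a factor, from median ratios to the 6-library geometric mean over 1059 genes whose FPKM reached 1 in every library (0.245 for NLRP3KO naive, 0.328 for WT naive, 1.78 for NLRP3KO day 3, 2.02 for WT day 3, 1.62 for NLRP3KO day 6 and 1.83 for WT day 6). FPKM are no basis for a count model, and a single library per group allowed no test.

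Depth was inferred. Single-exon models with 1 fragment gave the total each library was normalized to: 3112345 for NLRP3KO naive, 4571259 for WT naive, 475361 for NLRP3KO day 3, 604216 for WT day 3, 129744 for NLRP3KO day 6 and 562337 for WT day 6. Fragments of a member follow from its FPKM and transcript length, fitted for 42 members and taken from GENCODE M21 transcripts for the others. At the reference length that came nearest, 104 of 171 Th2 values above 0 (60.8%) lay within 0.1 of a whole number. The share to be found by coincidence was not computed. Fitted lengths were chosen to make fragments whole, so whole fragments of those 42 members are no check. The functions were tested on simulated data.

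Named genes were the 4 most abundant members of each group (eIF2 with eIF2B, eIF3, eIF4, eEF1, eEF2, others), members at least 2-fold and with bounds apart between genotypes, the 3 furthest in each direction in each stage comparison, and a pair of paralogs. The members and lists were chosen with earlier results of these data known, and the share of fragments on initiation factors was added after seeing the data. Alternatives changed the scaling, the pseudocount, the minimum FPKM and the member set. Python 3.11.15, pandas 2.3.3, numpy 2.4.6, scipy 1.17.1 and matplotlib 3.10.9 were used.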

Additional observations from a re-analysis of the deposited data

How the results depend on the processing

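No paired analysis was possible because each group has 1 library, and for the same reason no replicate could be left out. Each median difference of members below is set beside its value as reported. Between the naive libraries (−0.15) it was 0.25 with FPKM as deposited, −0.041 scaled by fragments on genes, 0.16 by summed FPKM, −0.087 with a pseudocount of 5, −0.12 with no minimum and −0.11 when scaled without NLRP3KO day 6, so its sign depends on the scaling. At day 3 (−0.63) it was −0.43 as deposited, −0.36 with a pseudocount of 5 and −0.24 with no minimum. At day 6 (−0.93) it was −0.43 by fragments on genes, −0.27 by summed FPKM, −0.56 with a pseudocount of 5 and −0.41 above 0 in both libraries. For WT day 3 against WT naive (−0.09) it was −2.51 as deposited, 0.10 by fragments on genes, −0.28 by the 2 libraries alone, 0.38 by summed FPKM and 0.043 above 0 in both. For NLRP3KO day 3 against NLRP3KO naive (−0.82) it was −3.15, −1.03 by the 2 libraries alone, −0.58 by summed FPKM, −0.93 and −0.38 with pseudocounts of 0.1 and 5, and −0.44 above 0 in both. For WT day 6 against WT day 3 (−0.03) it was 0.17 with a minimum FPKM of 5. For NLRP3KO day 6 against NLRP3KO day 3 (0.09) it was 0.55 by fragments on genes and 0.58 by summed FPKM. The other 52 of 79 values moved by less than counting error. The cause was not tested.

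Counts at least 2-fold lower ran from 0 to 3 between the naive libraries (3 as reported), 7 to 17 at day 3 (16), 7 to 23 at day 6 (20), 7 to 51 for WT day 3 against naive (14), 5 to 51 for NLRP3KO day 3 against naive (18), 1 to 10 for WT day 6 against day 3 (4) and 4 to 15 for NLRP3KO day 6 against day 3 (14). Counts at least 2-fold higher ran from 1 to 4 at day 3 (4), 2 to 9 at day 6 (6), 0 to 15 for WT day 3 against naive (4), 0 to 6 for NLRP3KO day 3 against naive (1), 2 to 9 for WT day 6 against day 3 (7) and 4 to 15 for NLRP3KO day 6 against day 3 (9). Across scalings Eif2s2, Eif2b3 and Eif3m stayed lower in NLRP3KO naive (−1.30 to −0.90, −1.41 to −1.03 and −1.25 to −0.85). FPKM as deposited shifted day 3 against naive by −2.62 in WT and −2.86 in NLRP3KO on the log2 scale, before the pseudocount is added. The initiation share in NLRP3KO naive was 3.54 percentage points below WT naive, shown as −3.54, and −8.29 without Eef1a1. At day 3 the difference stayed between −13.5 and −10.5 points. No share setting left out Eef2, although it held 17.6% of these fragments in NLRP3KO naive and 11.4% in WT naive. The eEF1 genes held a smaller share in NLRP3KO naive (47.7%) than in WT naive (50.4%). The naive difference therefore depends on Eef2, and leaving out Eef1a1 alone enlarges it. These share settings, the ratios of complexes under other scalings and 2 further scalings were chosen after seeing the data. Depth limits the Th2 values: 46 of 57 members in NLRP3KO day 6 had under 3 fragments.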

Other observations

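Eif2s3x and Eif2s3y encode the third subunit of eIF2 from the X and the Y chromosome and were outside the rule. Eif2s3x had an FPKM of 34.4 in NLRP3KO naive and 27.8 in WT naive, 1.83 in NLRP3KO day 3 and 4.33 in WT day 3, and was listed at 0 in NLRP3KO day 6 against 3.61 in WT day 6. Eif2s3y had 14.3 in NLRP3KO day 6, with deposited bounds of 0 and 26.2, while the other 5 libraries had it at 0. The sex of the mice is not given in the sources used here, and whether NLRP3KO day 6 came from mice of another sex was not tested.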
